A study of Mus musculus with 4 samples.

Results

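Livers from fasted liver-specific Cpt1a knockout mice were compared with a reference group, and every gene of the comparison is described here. Of 54532 genes in the count table, 4461 are listed for this comparison in the authors' deposited table, which is limited to unadjusted p-values up to 0.05. The 4 knockout livers are all the samples of the series, labelled as liver-specific Cpt1a knockout after a 24 h fast. The labels give neither strain nor age nor sex, and name no agent besides the fast. Nothing says that the 4 libraries come from separate mice, so their spread may be technical. The Cpt2 knockout of the same design belongs to an earlier series and is not analysed here. The knockout group is named Cpt1a_AlbCre in the authors' deposited table. AlbCre is the usual name of a Cre recombinase driven by the albumin promoter, which acts in hepatocytes. Liver cells in which that promoter was never active keep the gene. The reference group is named Rab30Cpt2_f there. The design text names littermate controls, also fasted for 24 h. The name of the reference group carries Rab30 and Cpt2 but not Cpt1a. No source used here says whether the group holds littermates of the Cpt1a knockout, what its name stands for or how many livers it holds.

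The product of Cpt1a, carnitine palmitoyltransferase 1 of liver, sits in the outer mitochondrial membrane and hands long-chain fatty acids to carnitine. This step commits fatty acids to mitochondrial oxidation, and in the fasted liver it feeds the synthesis of ketone bodies and powers the making of glucose. Cpt2, on the inner membrane, returns the fatty acids to coenzyme A. Unoxidised fatty acids can bind PPARA, a nuclear receptor that switches on genes for the uptake, thioesterase cleavage and peroxisomal and mitochondrial oxidation of fatty acids. The fasted liver at the same time takes apart amino acids, makes urea from their nitrogen and glucose from their carbon, and keeps secreting the proteins of blood plasma through the endoplasmic reticulum (ER).

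A gene is called higher or lower here where its adjusted p in the authors' deposited table is below 0.05, with the direction of the authors' log2 fold change. Levels are the authors' normalised counts, in which each library is scaled by 1 factor. They are given for livers 1 to 4 in this order beside the authors' mean of the reference group. That mean carries no SD or n, because no reference library is a sample of this series. The libraries held 13138884 to 14116441 counts, and over 10859 genes the median SD between the livers was 0.20 on the log2(FPKM + 1) scale. Library preparation, sequencing run and genotype cannot be told apart in this comparison. RNA levels of bulk liver also do not tell fewer cells of a type from less RNA per cell.

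Cpt1a (chromosome 19, 3323301 to 3385732, plus strand, GRCm38) had 1527, 1797, 1954 and 2321 normalised counts against a reference mean of 13129. All 4 livers lay far below the reference mean, by 6.91-fold in the authors' deposited table (adjusted p = 5.27e-51). Among the other carnitine enzymes and carriers, Crot, the peroxisomal octanoyltransferase, had 21337, 16307, 16532 and 16158 against 6476 in the authors' deposited table. The mitochondrial carnitine carrier Slc25a20 was called higher with a log2 fold change of 0.51, and the acetyltransferase Crat with 0.68, in the authors' deposited table. Cpt2 had 2843, 2489, 3013 and 1991 against 1973 and was not called (log2 fold change 0.39, adjusted p = 0.109 in the authors' deposited table).

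In all, 2431 genes were called, which is 14.4% of the 16862 genes over which the adjusted p-values of the authors' deposited table fit. Called higher were 1149 genes (6.81%) and called lower 1282 (7.60%). The genes called lower were the more abundant ones in both groups, though the change itself widens the gap in the reference mean and narrows it in the knockout. Their median reference mean was 764 normalised counts against 70.4 for the genes called higher, and their median knockout mean 426 against 161, in the authors' deposited table. Of the genes called lower, 109 had a reference mean over 10000, against 10 of the genes called higher, in the authors' deposited table. Summed over the genes called lower, the authors' means were 7.04e+06 normalised counts in the reference group and 3.37e+06 in the knockout. The sums over the genes called higher were 864805 and 1.62e+06 in the authors' deposited table. The median log2 fold change was 1.09 among the genes called higher and −0.83 among those called lower. At least 2-fold were 644 of the higher and 465 of the lower calls, 3.82% and 2.76% of the same 16862 genes. In 1282 of 1282 genes called lower all 4 livers lay below the reference mean, and in 1126 of 1149 called higher all 4 lay above it. The calls rest on these same 4 livers, so such agreement is largely built into the selection, here and for single genes below. The median log2 fold change over 17199 genes with a value was 0.01. Counts for gene lists are over the members among these 17199 genes, a slightly wider set than the 16862 behind the percentages.

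**Figure D1:**
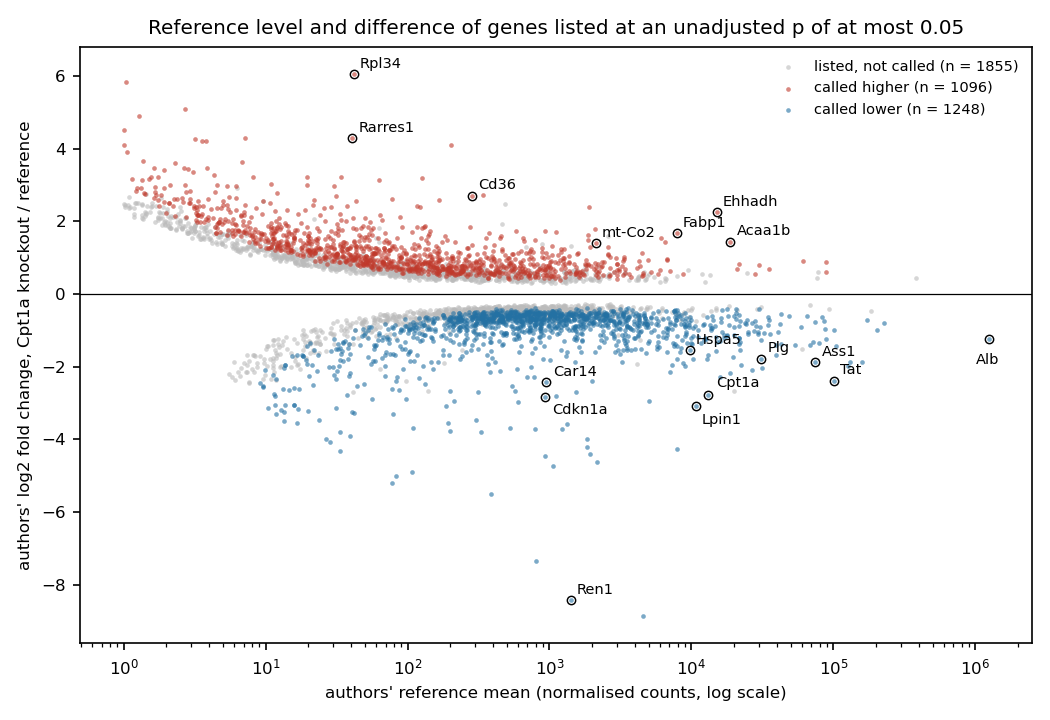
Each point is a gene of the authors' deposited table with a mean of at least 1 normalised count in both groups. The x axis is the reference mean in normalised counts (log scale) and the y axis is the authors' log2 fold change. Genes called lower (blue) reach the highest levels, with Alb at the right, while genes called higher (red) have a median reference mean of 70.4.

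Chaperones and folding enzymes of the ER, which fold the proteins a hepatocyte secretes, were called lower in 21 of 33 members and higher in none, at a median log2 fold change of −0.72 against 0.01 over all genes. Hspa5, the Hsp70 chaperone of the ER also called BiP, had 3721, 3688, 3818 and 2126 normalised counts against a reference mean of 9717 in the authors' deposited table. Hsp90b1, its Hsp90 partner, had 2925, 2493, 3180.2 and 2572 against 7578 in the authors' deposited table. Calr, a calcium-binding chaperone of glycoproteins, had 2719, 3629.9, 3196 and 2241 against 7874 in the authors' deposited table. For each of these genes all 4 livers lay far below the reference mean, and liver 4 was the lowest for Hspa5 and Calr. Pdia6, a disulfide isomerase, had the smallest adjusted p of the list, with 712, 809, 689 and 543 against 2080.3 (log2 fold change −1.60, adjusted p = 4.35e-17 in the authors' deposited table). Lower too in the authors' deposited table were the co-chaperone Dnajb11 (−0.88), the nucleotide exchange factor Hyou1 (−1.22), the isomerases Pdia3 (−1.05) and Pdia4 (−0.87), the glycoprotein sensor Uggt1 (−0.99) and the membrane lectin Canx (−0.81). Relative to the reference mean, the median of the 21 lower members was 0.481, 0.559, 0.554 and 0.483 in livers 1 to 4, so the livers differed little from each other.

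Several of these genes share a promoter element, the ER stress element, through which ATF6 and XBP1 raise chaperone genes during the unfolded protein response. The element was searched as CCAAT and CCACG 9 bases apart on both strands, in RefSeq promoters (GRCm38.p6) that run from 250 bases before to 50 bases after each start. It was found in 7 of 27 promoters of ER chaperone genes and in 2 of 18 promoters of genes for ER-associated degradation. Over all 11592 tested genes with a promoter in the table it was found in 20 (0.173%), and over the whole table of 27025 genes in 37 (0.137%). The 9 genes of the ER lists that hold it, Calr, Canx, Creld2, Derl3, Dnajc3, Hsp90b1, Hspa5, Pdia6 and Syvn1, were all called lower, and none of the other 11 tested genes with the element was called. Among 965 promoters of genes called lower the element stood in 9, and among 754 of genes called higher in 0. The 250 bases before the start are shown for 5 of these genes, because the element sits there and their products differ in role. Both parts of each element are in capitals, and read CCAAT then CCACG or, where the element lies on the other strand, CGTGG then ATTGG. A match is a description of the letters and no evidence of binding.

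Hspa5, chr2:34771840-34772089, plus strand: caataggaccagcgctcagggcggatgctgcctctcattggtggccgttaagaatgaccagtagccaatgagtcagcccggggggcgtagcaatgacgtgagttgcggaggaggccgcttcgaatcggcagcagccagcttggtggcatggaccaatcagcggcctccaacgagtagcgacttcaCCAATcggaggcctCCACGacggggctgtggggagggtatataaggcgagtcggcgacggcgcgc
Hsp90b1, chr10:86705445-86705694, minus strand: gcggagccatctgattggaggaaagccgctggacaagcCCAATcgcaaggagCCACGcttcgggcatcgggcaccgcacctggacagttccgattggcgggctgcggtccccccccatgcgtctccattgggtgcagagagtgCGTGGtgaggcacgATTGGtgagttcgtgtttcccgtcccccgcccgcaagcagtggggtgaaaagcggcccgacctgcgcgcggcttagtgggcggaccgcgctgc
Calr, chr8:84846932-84847181, minus strand: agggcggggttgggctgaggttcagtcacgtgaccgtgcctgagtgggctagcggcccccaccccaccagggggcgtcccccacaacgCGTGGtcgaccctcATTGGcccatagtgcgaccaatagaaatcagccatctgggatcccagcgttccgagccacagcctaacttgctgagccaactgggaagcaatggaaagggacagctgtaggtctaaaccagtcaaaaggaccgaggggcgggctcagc
Pdia6, chr12:17266339-17266588, plus strand: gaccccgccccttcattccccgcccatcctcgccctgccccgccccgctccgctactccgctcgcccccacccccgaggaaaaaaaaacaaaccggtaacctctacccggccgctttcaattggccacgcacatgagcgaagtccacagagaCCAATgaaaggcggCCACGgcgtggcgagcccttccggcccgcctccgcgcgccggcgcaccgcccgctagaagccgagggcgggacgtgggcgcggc
Creld2, chr15:88819396-88819645, plus strand: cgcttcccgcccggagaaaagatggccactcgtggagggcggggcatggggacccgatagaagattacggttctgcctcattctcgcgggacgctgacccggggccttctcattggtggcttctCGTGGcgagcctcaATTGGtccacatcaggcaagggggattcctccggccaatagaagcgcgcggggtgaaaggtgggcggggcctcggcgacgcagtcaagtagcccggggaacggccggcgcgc

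The element begins 65 bases before the start in Hspa5, 98 in Pdia6, 126 in Creld2 and 162 in Calr, and the Hsp90b1 promoter holds 2 elements, the first of which begins 212 bases before the start. A second form of the element, ATTGG and CCACG 1 base apart, was found in 9 tested genes, 4 of which were called lower (Dnajb11, Herpud1, Nucb1 and Lgalsl) and 0 higher in the authors' deposited table. The sensors and transcription factors of the unfolded protein response act upstream of these chaperones. Of 16 such genes 1 was called, Atf6b, lower with a log2 fold change of −0.67 in the authors' deposited table. That share, 6.25%, is near the 7.60% called lower over all genes. In the sum of the authors' other deposited comparisons, used where a gene is not listed, Atf6 stood at −0.01, Xbp1 at −0.19, Ern1 at −0.37 and Ddit3 at 0.18. Degradation genes had 6 lower and 0 higher of 23, among them the lectin Os9 (−1.20) and the ubiquitin ligase Syvn1 (−0.82) in the authors' deposited table. Derl3 had only 3.88, 13.6, 5.53 and 4.65 normalised counts in the authors' deposited table, and its log2 ratio to the reference mean moved from −2.01 to −2.57 without liver 2. Of 36 import and glycosylation genes 10 were lower and 2 higher, with the oligosaccharyltransferase subunits Rpn1 (−0.71) and Stt3a (−0.91) lower and the small subunits Ost4 (0.87) and Sec61g (0.92) higher in the authors' deposited table. Vesicle coat and Golgi genes had 11 lower and 5 higher of 59 at a median of −0.23.

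Hepatocytes make most of the clotting proteins of plasma. Of 27 coagulation factors and regulators, 23 were called lower and 0 higher, at a median log2 fold change of −0.91. Plg, the zymogen of the clot-dissolving enzyme plasmin, had 10672, 7428, 8934 and 9041 normalised counts against a reference mean of 30847 in the authors' deposited table. The fibrinogen beta chain Fgb had 20388, 13778, 17775 and 14811 against 42868, and prothrombin, F2, was lower by a log2 fold change of −1.03 in the authors' deposited table. Lower members ranged along the cascade, from the contact factor F12 (−1.05) and the starter F7 (−1.30) to the cofactor F5 (−1.16), and with it the inhibitors Serpind1 (−1.47), Proc (−0.95) and Serpinc1 (−0.81) in the authors' deposited table. Not called were F8 (0.63 in the authors' deposited table), which is made mostly by endothelial cells, and in the summed comparisons Klkb1 (−0.23), Ggcx (−0.33) and Vkorc1 (0.09). In the 4 livers the median of the 23 lower members stood at 0.506, 0.459, 0.515 and 0.486 of the reference mean.

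Of 28 acute phase and serum amyloid genes, 18 were lower and 0 higher, at a median of −1.12, with some members shared with the coagulation list. Serpina3n, a protease inhibitor, had 4424, 3633, 3985 and 2883 normalised counts against 12794 in the authors' deposited table, and all 4 livers lay far below that mean. Complement factors were lower in 16 and higher in 3 of 32. The lower ones included C1ra (−1.13) and C1s1 (−0.83), proteases that start the classical pathway, and their inhibitor Serping1 (−0.94), while Cfhr3 (1.33), Cd55 (1.10) and Mbl1 (0.50) were higher in the authors' deposited table. C4a had 64, 136, 104 and 136 against 1324 in the authors' deposited table, but it is a near copy of C4b, so the share of reads counted for it is uncertain. The same holds for Serpina1b, Serpina1d and Serpina1e, which the authors' deposited table gives at −0.95, −1.04 and −1.23 on the log2 scale. Albumin, Alb, the most abundant protein of plasma, had 707942, 418835, 466406 and 523448 against 1242462, a log2 fold change of −1.23 in the authors' deposited table. Of 23 apolipoproteins and lipoprotein assembly genes 9 were lower and 0 higher, with Apoh (−1.06), Clu (−1.09) and the lipase inhibitor Angptl4 (−0.98) in the authors' deposited table. Among secreted liver factors 10 were lower and 2 higher of 30. The fetuins Ahsg (−1.44) and Fetub (−1.38) were among the lower ones, and the selenium carrier Selenop (0.60) and Bmp2 (0.56) were the higher ones in the authors' deposited table.

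Genes that take apart amino acids were called lower in 31 and higher in 3 of 48, at a median log2 fold change of −0.61. Tat, which opens the breakdown of tyrosine, had 24911, 23547, 18367 and 10365 normalised counts against a reference mean of 100738 in the authors' deposited table. Later steps of tyrosine breakdown were lower too, Hpd by a log2 fold change of −1.41, Hgd of −0.86 and Fah of −0.70 in the authors' deposited table. Liver 4 had the least Tat, and none of the 4 livers came near the reference mean. Also lower were enzymes for other amino acids, Prodh of proline (−1.36), Aass of lysine (−1.56), Sds of serine (−1.61), Gldc of glycine (−1.61), Hal of histidine (−0.84) and Cdo1 of cysteine (−0.85) in the authors' deposited table. Steps of branched-chain breakdown were lower too, with Bckdha at −0.65, Ivd at −0.64, Dbt at −1.02 and Mccc1 at −0.91 in the authors' deposited table. Among the 3 higher members were Csad (0.83), a step of taurine synthesis, and Gcsh (0.74), the carrier protein of glycine cleavage, in the authors' deposited table.

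Urea cycle enzymes and carriers were lower in 10 and higher in 0 of 16, at a median of −0.81. Cps1, which fixes ammonia in the first step, had 63394, 46999, 39500.4 and 24495 normalised counts against a reference mean of 158483 in the authors' deposited table. Ass1 and Asl, which build and split argininosuccinate, had 21802, 21584, 22824 and 15522 against 74746 and 12080.1, 13259.6, 15404 and 8237 against 39361 in the authors' deposited table. Liver 4 was the lowest of the livers for each of these enzymes. Arg1, which releases urea, was lower by a log2 fold change of −0.82, Otc by −0.80, the ornithine carrier Slc25a15 by −1.26 and liver glutaminase Gls2 by −1.28 in the authors' deposited table. One-carbon and methionine cycle enzymes were lower in 15 and higher in 0 of 29. Aldh1l1, which disposes of folate-bound formate, had 3443, 4417, 5052 and 3705 against 18624, and Mthfd1 (−1.30), Cbs (−1.18), Dmgdh (−1.34) and Ahcy (−0.77) were lower in the authors' deposited table. Of 19 genes that lead from tryptophan to NAD, 9 were lower and 0 higher. Acmsd, which diverts the pathway away from NAD, had 81.5, 139.7, 104 and 75.3 against 1847 in the authors' deposited table, the widest gap of that list, beside Kynu (−1.39) and Qprt (−0.71).

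**Figure D2:**
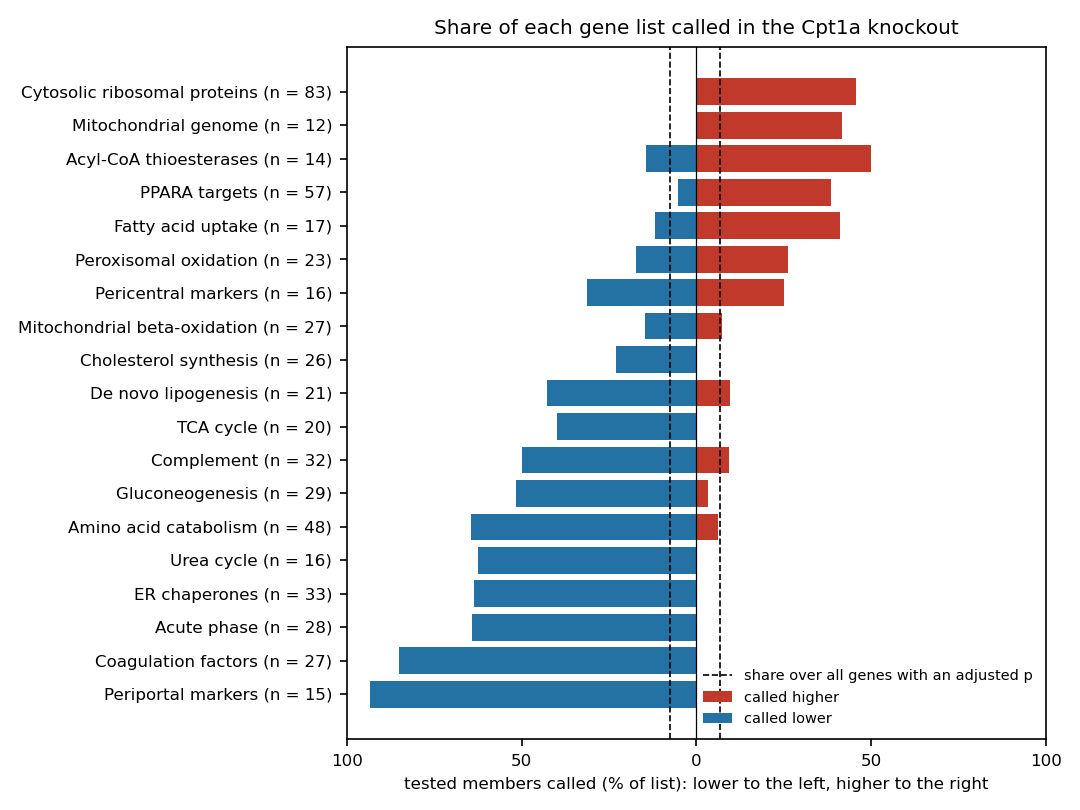
Bars give the share of the tested members of 19 gene lists called higher (red, to the right) or lower (blue, to the left) in the authors' deposited table, in percent. Dashed lines mark the share over the 16862 genes with an adjusted p, 6.81% higher and 7.60% lower. Coagulation factors, ER chaperones, urea cycle and amino acid genes lie to the left, and ribosomal proteins, mitochondrial genome genes and PPARA targets to the right.

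Of 29 genes of glucose production, 15 were lower and 1 higher, at a median log2 fold change of −0.51. G6pc, the phosphatase of the last step, had 6488, 5391, 5974 and 3550.1 normalised counts against a reference mean of 12716 in the authors' deposited table, and its glucose phosphate carrier Slc37a4 had 3355, 2513, 3044 and 2443 against 6594. Pck1, the fasting-induced carboxykinase, had 57481, 47144, 52561 and 49970.5 against 85803, a smaller difference (−0.73) that all 4 livers showed in the authors' deposited table. Transaminases that feed carbon in, Got1 (−1.94) and Gpt (−1.34), and the regulators Ppargc1a (−1.23) and Foxo1 (−0.87) were lower in the authors' deposited table. The 1 higher member, Fbp2, had a mean of only 14.2 normalised counts in the knockout in the authors' deposited table. Glycogen genes had 5 lower and 1 higher of 24. Pygl, the liver phosphorylase that releases glucose from glycogen, had 1286, 1224, 1264 and 1070.5 against 3535, and Ppp1r3b, which brings a phosphatase to glycogen, 981, 1243, 934 and 629.7 against 2875 in the authors' deposited table. The glycogen-binding protein Stbd1 was higher (1.13 in the authors' deposited table). Glucose entry and glycolysis had 6 lower and 0 higher of 23. Citric acid cycle enzymes had 8 lower and 0 higher of 20, with Fh1 (−1.15) and Sdha (−0.73), while both subunits of the mitochondrial pyruvate carrier, Mpc1 (0.67) and Mpc2 (0.94), were higher in the authors' deposited table.

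Target genes of PPARA were called higher in 22 and lower in 3 of 57, at a median log2 fold change of 0.59, and 47 of the 57 lay above 0. Ehhadh, the bifunctional enzyme of peroxisomal oxidation, had 106281, 56070.0, 64135 and 61164 normalised counts against a reference mean of 15090.4 in the authors' deposited table. Cd36, a fatty acid transporter of the cell surface, had 2867, 1843, 1249 and 1463 against 283 in the authors' deposited table. Liver 1 was the highest for both, and every liver lay far above the reference mean. The 3 lower members were Cyp2b10 (−3.68), Angptl4 (−0.98) and the droplet protein Plin5 (−0.93) in the authors' deposited table. Uptake and binding proteins were higher in 7 and lower in 2 of 17. Fabp1, the main fatty acid binding protein of hepatocytes, had 8519, 12844, 40579 and 38454 against 7868 in the authors' deposited table. Livers 3 and 4 had several times the count of the other livers, and liver 1 lay just above the reference mean. Its adjusted p in the authors' deposited table was 0.0415. Dbi, which binds acyl-CoA, had 4132, 5491, 6993 and 6305 against 1865 in the authors' deposited table, with all 4 livers above the reference mean.

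Acyl-CoA thioesterases, which split coenzyme A from fatty acids, were higher in 7 and lower in 2 of 14. Acot1 of the cytosol had 10987, 6777, 9242 and 13069 normalised counts against 1892, Acot2 of mitochondria 1338, 700.4, 845 and 1076 against 165 and Acot4 of peroxisomes 6633, 5489, 3686 and 5214 against 1864 in the authors' deposited table. These genes are close copies of each other, so the split of reads between them is uncertain. The lower ones were Acot11 (−1.75) and Acot7 (−0.73) in the authors' deposited table. Acyl-CoA synthetases, which run the opposite reaction, were lower in 4 and higher in 0 of 14, with Acsl3 at −0.99 and Acsl4 at −0.72 in the authors' deposited table. Peroxisomal oxidation enzymes had 6 higher and 4 lower of 23. Among the higher ones were the thiolase Acaa1b (1.44) and the transporters Abcd2 (1.43) and Abcd3 (0.55) in the authors' deposited table. Among the lower ones Acox2, which oxidises branched chains and bile acid precursors, had 1863, 1882, 2252 and 2008 against 5675, and Phyh, which begins the breakdown of phytanic acid, was at −0.55 in the authors' deposited table. Of 16 peroxins, which build peroxisomes, 1 was called, Pex11a, which divides them, with 5630.2, 4814, 4999 and 6919.7 against 2595 in the authors' deposited table. That share, 6.25%, is near the 6.81% called higher over all genes.

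Mitochondrial oxidation had 2 higher and 4 lower of 27 enzymes, at a median of −0.04. These shares, 7.41% and 14.8%, compare with 6.81% and 7.60% over all genes. Decr1 (0.63) and Eci1 (0.59), which handle double bonds, were the higher ones, and Mut, Pcca, Pccb and Acadsb, which serve propionate and branched-chain carbon, were lower at −0.89, −0.72, −0.53 and −0.58 in the authors' deposited table. The chain-length dehydrogenases were not called, and in the summed comparisons Acadvl stood at −0.27, Acadl at 0.20 and Acadm at 0.07. Ketogenesis had 1 higher and 0 lower of 9. Omega-hydroxylases split, with the aldehyde dehydrogenase Aldh3a2 higher (1.53) and Cyp4f14 (−1.47) and Cyp4f15 (−1.22) lower in the authors' deposited table, with 3 higher and 5 lower of 19. The PPARA targets Cyp4a14 and Cyp4a10 were not called and stood at 0.15 and −0.40 in the summed comparisons. No promoter of 44 PPARA targets held the receptor's direct repeat, searched only as an exact AGGTCA and AGGTCA 1 base apart. Only 7 of 11592 promoters of tested genes (0.0604%) held it. At so low a share, 0 of 44 cannot tell whether these genes lack the element, and inexact or more distant copies were not searched.

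**Figure D3:**
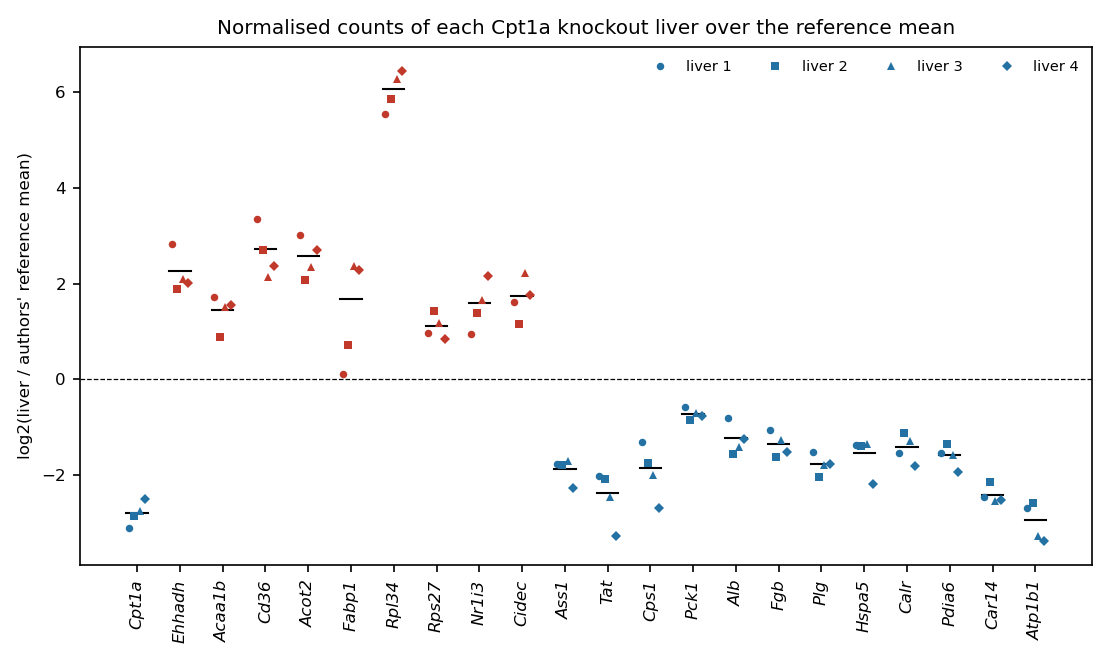
Points show the normalised count of each Cpt1a knockout liver over the authors' reference mean (log2 scale) for 22 genes, with 1 marker shape per liver and a black line at the authors' knockout mean. Red genes were called higher and blue ones lower. The livers of a gene stay on 1 side of the dashed line at 0, and Fabp1 shows the widest spread, from 8519 to 40579 normalised counts.

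Lipid storage and synthesis genes moved in both directions. Fitm1, which helps droplets bud from the ER, had 209.5, 314, 361 and 268 normalised counts against 63.9, and Cidec, which fuses droplets, 1792, 1298, 2710.0 and 1983 against 583 in the authors' deposited table. Droplet proteins had 2 higher and 2 lower of 18. Triglyceride synthesis genes had 4 higher and 3 lower of 24. Lpin1, a phosphatidate phosphatase, had 1177, 1391, 1118 and 1416 against 10739, and the diacylglycerol kinase Dgkh 478, 529.6, 340.2 and 580.4 against 78 in the authors' deposited table. All 4 livers lay below the reference mean for Lpin1 and above it for the other 3 genes. De novo lipogenesis was lower in 9 and higher in 2 of 21, with Fasn at 462, 410.3, 397 and 405 against 1524 and its regulator Srebf1 at 255, 220.2, 309.8 and 356 against 791, and with the elongase Elovl5 higher (0.94) in the authors' deposited table. Cholesterol synthesis was lower in 6 and higher in 0 of 26, at a median of −0.35. Bile acid synthesis had 7 lower and 0 higher of 18, among them Cyp27a1 (−0.84), Cyp7b1 (−1.48) and Akr1d1 (−1.10) in the authors' deposited table. Lipases had 5 higher and 4 lower of 20, with monoglyceride lipase Mgll (0.91) and Pnpla7 (1.24) higher and hepatic lipase Lipc (−1.20) lower in the authors' deposited table.

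Cytosolic ribosomal protein genes were called higher in 38 and lower in 0 of 83, at a median log2 fold change of 0.66, and the other 45 also had a value above 0. Small subunit genes were called in 20 of 32 and large subunit genes in 17 of 48. Rps12 had 1352, 2059, 1611 and 2049 normalised counts against 745, Rps19 2543, 3117, 3567 and 4159 against 1567 and Rpl12 2535, 3047, 3852 and 4603 against 1592 in the authors' deposited table. All livers lay above the reference mean for these genes, with liver 1 the lowest for each. The livers were spread for the list as a whole. Its summed level was 7608, 9649, 12640 and 14409 FPKM in livers 1 to 4, and the median of the 38 higher members was 1.33, 1.86, 1.99 and 2.33 times the reference mean. Of these 38 genes, 34 had all 4 livers above the reference mean. Rpl34 had 1961, 2417, 3234 and 3664 against 41.8 and Rpl21 92.2, 174, 226 and 250.2 against 19.7 in the authors' deposited table. Ribosomal protein genes have near-identical pseudogenes, and Rpl34-ps1 had 46.6, 84.4, 106 and 128 against 1943 in the authors' deposited table (chosen after its values were seen), so the gene behind these reads is uncertain. Of 97 tested pseudogenes of this family 22 were called higher and 1 lower, at a median of 0.63. These genes are short, with a median gene model of 1734 bases against 4306 over protein-coding genes. Among the shortest of 10 equal classes of protein-coding genes, up to 1683 bases, the 1339 genes outside the list had a median log2 fold change of 0.10, with 112 higher and 84 lower, while the medians of the other classes lay between −0.07 and 0.02. The part of gene length in the ribosomal result was not tested.

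Ribosome biogenesis factors were lower in 12 and higher in 0 of 34, at a median of −0.46, with Nolc1 (−1.08), Rrp12 (−1.39) and nucleolin, Ncl (−0.62), in the authors' deposited table. Transfer RNA synthetases were lower in 9 and higher in 0 of 37, with Lars2 of mitochondria at 1223, 1269.8, 838 and 878 against 3039.9 and Eprs of the cytosol at 1308, 1133, 968 and 1009 against 2391 in the authors' deposited table. Of 12 protein-coding genes carried by mitochondrial DNA, 5 were called higher and 0 lower. Their median was 0.74, and all 12 lay above 0. mt-Nd2, a subunit of complex I, had 183401, 175060, 146387 and 147936 against 89257, and mt-Co2 of complex IV 5655, 3561, 6530.1 and 6492 against 2109 in the authors' deposited table. Nuclear subunits of the same complexes had 6 higher and 6 lower of 81. These shares, 7.41% each, were near the 6.81% and 7.60% over all genes. The median of the 6 higher members was 1.18, 1.80, 1.80 and 1.87 times the reference mean in livers 1 to 4. The higher ones included Atp5e (1.07), Cox7c (0.82) and Ndufb2 (0.92), and the lower ones Ndufs1 (−0.86) and Sdha (−0.73) in the authors' deposited table. Mitochondrial ribosomal proteins had 5 higher and 1 lower of 77, where 6.49% higher is near the share over all genes. The median of these 5 was 1.14, 1.53, 1.98 and 1.76 times the reference mean, so liver 1 was again the lowest. Mitochondrial chaperones and proteases had 7 lower and 1 higher of 20, with Clpx (−1.22), Lonp1 (−0.83) and Hspa9 (−0.71) lower in the authors' deposited table.

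**Figure D4:**
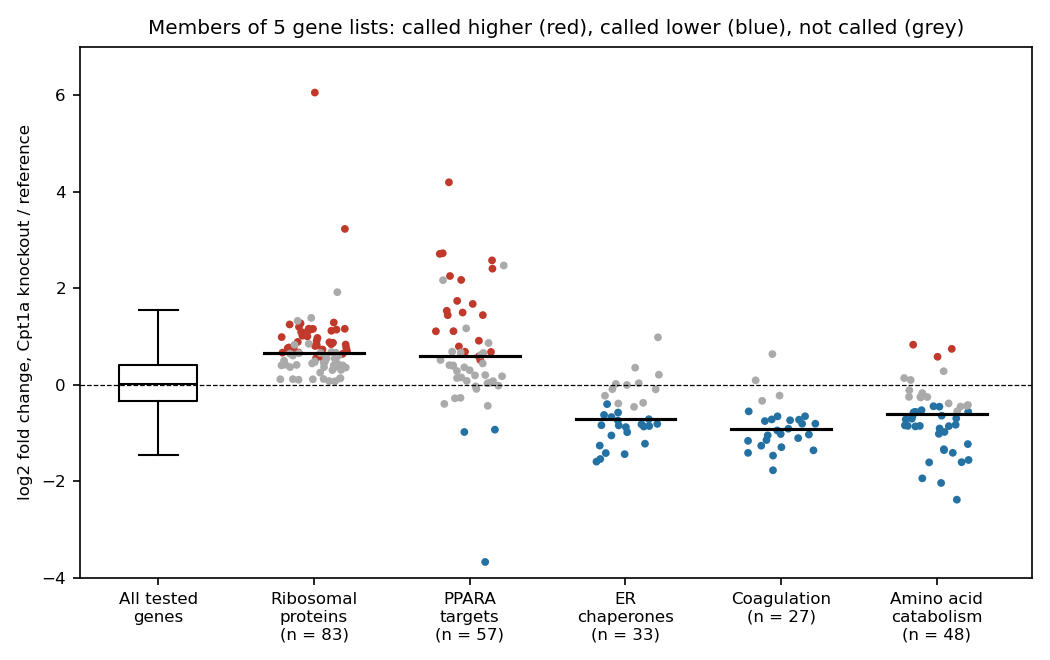
Each point is a tested member of a gene list, placed by its log2 fold change (the authors' deposited value, or the sum of their other comparisons where the gene is not listed), with a line at the list median. The box on the left spans the quartiles of all tested genes with whiskers to 1.5 times the quartile range, outliers not drawn. Ribosomal proteins and PPARA targets have medians of 0.66 and 0.59, and ER chaperones, coagulation factors and amino acid genes −0.72, −0.91 and −0.61.

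Genes that respond to glucocorticoids, the adrenal hormones that rise in fasting, were lower in 9 and higher in 0 of 20, at a median of −0.79. Fkbp5, a chaperone of the hormone's receptor, had 1998, 2102, 2150.3 and 1874 normalised counts against 4998, and Tsc22d3 1598, 1331, 922 and 669 against 3274 in the authors' deposited table. Hsd11b1, which makes the active hormone within the liver, had 4393, 3556, 4647 and 4401 against 9881, and the metallothioneins Mt1 and Mt2 lay at −1.97 and −2.71 in the authors' deposited table. Clock genes had 5 higher and 5 lower of 23. The repressors Nr1d1 (1.54) and Bhlhe41 (1.85) were higher, and Arntl (−2.06), Cry1 (−1.86) and Nfil3 (−1.24) lower, in the authors' deposited table. No source used here gives the hour at which livers were taken. Nr1i3, the nuclear receptor CAR, had 871, 1181, 1423 and 2036 against 454 in the authors' deposited table, and its target Cyp2b10 was among the lower genes. Nuclear receptors and co-regulators had 4 higher and 2 lower of 38. Cytochromes P450 of families 1 to 3 had 14 lower and 5 higher of 44, with Cyp3a11 (−1.33), Cyp2a5 (−1.33) and Cyp2f2 (−1.38) lower in the authors' deposited table. Conjugating transferases had 12 lower and 6 higher of 55. Tpmt, which methylates thiopurine drugs, had 359, 453, 402 and 295 against 1978, and the sulfotransferase Sult1a1 2126, 3107, 3968 and 2588 against 10196 in the authors' deposited table.

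The livers carried the markers of hepatocytes at 20969 to 30571 summed FPKM, with all 11 at a mean FPKM of at least 1. In the comparison 7 of these 11 were called lower and 0 higher, at a median of −0.70. Markers of hepatocytes near the portal vein were lower in 14 and higher in 0 of 15, at a median of −1.38, and several of them are the nitrogen genes already given. Of the others, Pigr, which carries antibodies into bile, had 10844, 6648, 6441 and 6389.5 normalised counts against 21907, and Aldh1b1 146, 141, 234 and 120.0 against 776 in the authors' deposited table. Markers of hepatocytes near the central vein split into 4 higher and 5 lower of 16. Their median was −0.19, with 7 members above 0 and 9 below. Axin2 (1.02) and Tbx3 (1.05) were higher, and Gulo (−1.16) and Cyp1a2 (−0.74) lower, in the authors' deposited table. Wnt2 (0.92) and Rspo3 (0.86), signals that endothelial cells of the central vein send, were higher in the authors' deposited table. A difference in Wnt signalling was not tested.

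Other cells of the liver, in which the albumin promoter is not active, were followed by their markers. Endothelial markers had 4 higher and 0 lower of 14, stellate cell markers 3 and 0 of 11, and B cell markers 4 and 0 of 10. Kupffer cell markers had 2 higher and 1 lower of 15, with the lysozyme Lyz2 at 765, 889, 822 and 976 against 349 and the scavenger receptor Cd163 at 405, 322, 264 and 370.2 against 853 in the authors' deposited table. The median log2 fold changes were 0.43 for endothelial, 0.41 for stellate, 1.57 for B cell and 0.49 for Kupffer cell markers, called or not. Of the 15 Kupffer cell markers 13 lay above 0. The summed levels of these lists were 112 to 130 FPKM for endothelial, 101 to 106 for stellate, at most 22.3 for B cell and 244 to 266 for Kupffer cell markers in the livers. Their part in the hepatocyte result was not tested. T cell and NK cell markers had 2 higher, Cd3d and Cd3g, and 0 lower of 11. They summed to 2.85 to 4.60 FPKM, and none of them reached a mean FPKM of 1. Of 32 histocompatibility genes 7 were higher and 5 lower. Among the higher ones were Cd74 (0.86), H2-Aa (0.75) and H2-Eb1 (0.85) of class II, carried by immune cells, and among the lower ones H2-K1 (−0.79) and H2-D1 (−0.63) of class I, carried by most cells, in the authors' deposited table.

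The remaining lists are given by their counts and a few members. Over all genes 6.81% were called higher and 7.60% lower, and several lists of this and the next paragraph lay near these shares. Of 29 cytosolic heat shock genes 5 were lower and 0 higher, with the co-chaperones Stip1 (−0.68) and Fkbp4 (−0.68) in the authors' deposited table. ATF4 targets of the integrated stress response had 5 lower and 0 higher of 28, with asparagine synthetase, Asns, at 21.3, 47.5, 49.8 and 9.3 normalised counts against 100.1 in the authors' deposited table. All 4 livers lay below the reference mean for Asns. Among 33 genes of glutathione and thioredoxin, 3 were higher, with the lipid peroxidase Gpx4 at 3931, 5029, 6188 and 6587 against 2653 in the authors' deposited table, and 1 lower, Gstp1 (−1.12). These shares were 9.09% higher and 3.03% lower. Iron genes had 7 lower and 3 higher of 27. The ferritin chains Ftl1 (0.82) and Fth1 (0.70), which store iron, were higher, while the plasma oxidase Cp (−1.05) and the sensor Tfr2 (−0.62) were lower in the authors' deposited table. Lysosomal genes had 10 lower and 1 higher of 43, the higher one being acid lipase, Lipa (0.73), and the lower ones including Gusb (−1.05) and Naglu (−0.95) in the authors' deposited table. Core autophagy genes had 3 lower and 2 higher of 40 (7.5% and 5%), near the shares over all genes. Bile and organic ion transporters had 5 lower and 1 higher of 28, with the bile salt export pump Abcb11 at 2712, 1978, 1409.8 and 1584 against 4227 in the authors' deposited table. Hnf4a, a master regulator of hepatocyte identity, was lower (−0.70), 1 of 4 lower and 1 higher among 22 hepatocyte transcription factors in the authors' deposited table. Growth hormone and IGF genes had 5 lower and 0 higher of 25, and insulin, glucagon and adrenergic signalling 4 lower and 0 higher of 37. Chemokines and their receptors had 6 higher and 2 lower of 34, with Cxcr6, a receptor of T cells and NK cells, at 11.6, 27.2, 18.4 and 17.7 against 3.38 in the authors' deposited table. Extracellular matrix genes had 1 higher, Tgfb1 (0.91), and 1 lower, Fn1 (−0.89), of 33 in the authors' deposited table. Proliferation markers also had 1 of each among 12, Mki67 (1.52) higher and Rrm2 (−1.85) lower in the authors' deposited table.

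Among other secreted proteins, protease inhibitors of the serpina family had 9 lower and 1 higher of 18. Major urinary proteins, which carry pheromones and are near copies of each other, had 2 lower and 0 higher of 17. All 17 had a log2 fold change below 0, at a median of −1.30, but the split of reads between near copies is uncertain. Growth arrest genes had 4 lower and 1 higher of 25, the higher one being cyclin D1, Ccnd1 (0.89 in the authors' deposited table). Sodium and proton pump subunits had 7 lower and 0 higher of 32, cytoskeletal genes 3 higher and 2 lower of 22, and carbonic anhydrases 2 lower and 1 higher of 12. The pentose phosphate list had 1 higher of 15, malic enzyme Me1 (0.59 in the authors' deposited table), and the pyruvate dehydrogenase list 2 higher and 4 lower of 15. Genes of lipid-laden phagocytes had 2 higher and 3 lower of 20. Of 1144 odorant and taste receptor genes 18 were tested, with 2 higher. Markers of monocyte-derived macrophages had 1 higher of 10 and neutrophil markers 1 higher of 4, while no marker of cholangiocytes (6), red blood cells (4) or exocrine pancreas (2) was called. The 6 cholangiocyte markers all lay below 0, at a median of −0.75. The adipocyte list had 1 lower of 3, Pck1, which hepatocytes also express, and no skeletal muscle marker was tested.

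Some of the firmest calls have not been named above. Part of the genes that follow, such as Car14 and Cdkn1a, are members of lists already counted. Rarres1, described as induced by retinoids, had 759.6, 1254, 655 and 493 normalised counts against 40.6 and the peptidase Mme 208, 156, 116 and 109.7 against 7.19 in the authors' deposited table. Pctp, a carrier of phosphatidylcholine, had 2694, 2802, 3647 and 3287 against 935, and Habp4 1413, 1516, 1795 and 1481 against 713 in the authors' deposited table. Every liver lay above the reference mean for these genes. On the lower side, the carbonic anhydrase Car14 had 172, 213, 162 and 166 against 951, and the sodium pump subunit Atp1b1 777, 834, 516 and 478 against 5009 in the authors' deposited table. Agt, the precursor of angiotensin, had 4142, 4143, 4348 and 3721 against 13069 and the amino acid transporter subunit Slc3a1 130.0, 52.4, 46.1 and 78.1 against 599.7 in the authors' deposited table. The cell cycle inhibitor Cdkn1a had 165, 109, 139 and 111 against 936, and cathepsin L, Ctsl, 6368, 5685, 7803 and 4888 against 26522 in the authors' deposited table.

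Several differences were close to all or none, and the genes named next were chosen after their values were seen. Called lower and at 0 counts in all 4 livers were 13 genes. C1s2, a complement protease gene, had a reference mean of 158 in the authors' deposited table, which is at least 223-fold lower in the knockout when 3 counts over the 4 livers are taken as the limit that a count of 0 allows. Ifi202b had a reference mean of 33.6 and was at least 47.2-fold lower by the same limit in the authors' deposited table. Called higher and listed at 0 in the reference group were 18 genes, among them Olfr1033 (186, 256, 185 and 143 normalised counts), Olfr1034 (70.8, 61.1, 42.4 and 39.1), Adh6-ps1 (97, 181, 211 and 156) and Gabra3 (43.7, 20.4, 34.1 and 26) in the authors' deposited table. Ren1, renin, had 7.76, 5.82, 2.77 and 0 against 1412, and Fam107a 5.82, 1.94, 6.45 and 5.58 against 807 in the authors' deposited table.

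The strongest differences were unevenly placed on the genome, and the windows and genes named here were chosen after their values were seen. In 320 windows of 5 Mb with at least 20 tested genes, the median window held 1 called gene with a log2 fold change of at least 2 in size and had 13.8% of its genes called. Over all genes 342 passed this limit, 2.03% of the 16862 genes adjusted over. Chromosome 1 from 170 to 175 Mb held 19 such genes, with 29 higher and 7 lower of 88. The Ifi200 genes of innate sensing lie there, and the authors' deposited table calls 9 of the 12 higher and 1 lower. Mndal had 178, 263, 161 and 211 against 0.529 and Ifi204 178, 150.4, 134 and 163 against 19.5, while the neighbouring Ifi202b was at 0 in all 4 livers in the authors' deposited table. Genes of other function in this window were called too, such as Fcgr3 (2.19), Tomm40l (1.59), Dusp23 (1.64), Nr1i3 (1.60) and the endothelial marker Fcgr2b (0.68) in the authors' deposited table. Interferon-stimulated genes elsewhere in the genome had 4 higher and 1 lower of 44 (9.09% and 2.27%, against 6.81% and 7.60% over all genes). Next came chromosome 13 from 65 to 70 Mb, with 6 such genes and 13 higher and 2 lower of 52. Zinc finger genes were among the higher ones, with Zfp874a (498, 496, 491 and 375 against 131), Zfp738 (1.32), Zfp458 (1.52) and the regulator of sex-limited protein Rsl1 (2.18) in the authors' deposited table. No source used here gives the strain background of either group, and the part of such a difference in these windows was not tested. Rab30, a small GTPase whose name the reference group carries and a member of the PPARA target list, had 1575, 1166, 928 and 1057 against 547 and was called higher in the knockout livers (adjusted p = 8.39e-05 in the authors' deposited table). The Y-linked genes Ddx3y and Eif2s3y were expressed in all 4 livers, at 18.0 to 21.1 and 12.9 to 16.5 FPKM. Their log2 fold changes were 0.00 and 0.01 in the summed comparisons.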

How the data were processed

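RNA of 4 livers was sequenced. The submitters' processing notes name HISAT2 and the mouse build GRCm38 (mm10). No source used here gives the counter, the strand setting, the test or its filter. The authors deposited raw counts and FPKM per gene (counts scaled to gene length and library size), and a comparison table with normalised counts (a signal, counts divided by 1 factor per library), group means, log2 fold changes and p-values. The deposited gene model length was used only to compare gene classes. No refit was made, because 8 other per-sample columns match no sample here and were not used. The table lists genes with p up to 0.05 (97 of 4461 without adjusted p). For other genes the log2 fold changes of the authors' other 2 comparisons were added, Cpt1a knockout over Cpt2 group and Cpt2 group over reference group. For 4424 genes with both, the median absolute difference was 0.012. Genes with either value, 17199 in all, are called tested.

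Named are Cpt1a, Cpt2, the 20 protein-coding genes per direction with the smallest adjusted p and a log2 fold change of at least 1 in size, and 6 called genes per list; other members stand as examples. The members, the 71 gene lists and the 16 cell type lists were chosen with earlier results of these data known. Promoters are RefSeq's, GRCm38.p6. Python 3.11.15, pandas 2.3.3, numpy 2.4.6, matplotlib 3.10.9, R 4.3.3 and edgeR 4.0.16 (TMM factors only) were used, and the helper functions were tested on simulated data. Alternatives were other thresholds, filters and scalings, and leaving out each liver. Some genes are not reported here.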

Additional observations from a re-analysis of the deposited data

Results flagged for a closer look

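Among the genes named by rule and the summed cell type markers, 25 values had 1 liver far from the other 3, with a gap to the nearest other liver over Dixon's critical share of the range in FPKM. Chance gives this for about 1 in 20 such groups of 4, and 371 genes were checked. Liver 1 stood above the others with 2449 for Ehhadh (1289 to 1470.4 in the others), 269 for Crot (203 to 207 in the others) and 59.7 for Gk (42.5 to 44.7 in the others) FPKM. In liver 1, further values that stood above the others were 40.2 for Slc22a18 (33.9 to 34.6 in the others) and 25.9 for Hspa4 (18.2 to 19.1 in the others) FPKM. Also above the rest in liver 1 were 173 for Cyp2f2 (117 to 122 in the others), 63.5 for Gstk1 (58 to 58.2 in the others) and 4.10 for Tubb6 (2.75 to 2.94 in the others) FPKM. Liver 1 stood above the others with 903 for Tdo2 (699.5 to 728 in the others) and 185 for Pigr (109 to 113 in the others) FPKM. In liver 1, further values that stood above the others were 12.7 for the sum of cholangiocyte markers (8.65 to 9.21 in the others) and 14.3 for the sum of exocrine pancreas markers (3.43 to 4.28 in the others) FPKM. Liver 1 stood below the others with 0.0309 for Atp8b5 (0.107 to 0.113 in the others) and 22.5 for Ndufb4 (32.9 to 34.4 in the others) FPKM. Liver 2 stood above the others with 58.6 for Cyp4f15 (47.3 to 48 in the others), 0.467 for Derl3 (0.134 to 0.19 in the others) and 1.57 for Oas2 (0.898 to 0.92 in the others) FPKM. Liver 2 stood below the others with 19.1 for Pdha1 (21.9 to 22.3 in the others) FPKM. Liver 3 stood above the others with 233 for Bnip3 (188 to 192 in the others) and 2.76 for Tgfb1 (2.03 to 2.15 in the others) FPKM. Liver 3 stood below the others with 0.0369 for Ccr9 (0.117 to 0.124 in the others) FPKM. Liver 4 stood above the others with 26.1 for Lipc (19.9 to 20.2 in the others) FPKM. Liver 4 stood below the others with 3.81 for Zfp874a (4.99 to 5.08 in the others), 439.8 for Ass1 (613 to 646 in the others) and 34.4 for Hspa5 (59.8 to 61.7 in the others) FPKM. Of these, Ehhadh, Crot and Gk are PPARA targets or carnitine enzymes called higher, and Ass1 and Hspa5 were called lower with all 4 livers below the reference mean. The causes were not tested.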

How the results depend on the processing

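At an adjusted p below 0.01 the counts were 624 higher and 766 lower, 1390 in all. With a log2 fold change of at least 1 in size they were 644 and 465, 1109 in all, and the lower share moved from 52.7% to 41.9%. Restriction to protein-coding genes or to a mean count of at least 10 kept each count within 1.5 times. Centring could hardly change them, since it shifts each log2 fold change by only 0.01 and leaves the adjusted p as it is. With only the listed members, the list medians changed sign for peroxisomal enzymes (0.46), Cyp4 hydroxylases (−0.45), triglyceride synthesis (−0.41), nuclear receptors (0.64) and extracellular matrix genes (0.51), since members not listed drop out. The median FPKM over the named genes was 24.9, with 27.9 under TMM scaling and 23.9 as the median of livers. Leaving out 1 liver gave 22.8 to 24.9. Leaving out a liver (chosen after seeing the data) was tried on 2274 called genes with a mean of at least 10. The sign of the ratio to the reference mean changed in 0, and 1 to 5 genes moved over 1.5-fold. The sign result was largely fixed in advance and says little about robustness. Every liver lay on the called side of the reference mean in 1282 of 1282 lower and 1126 of 1149 higher calls. For such genes leaving out a liver cannot change the sign. The reference mean itself was not varied. No paired analysis was possible because the reference libraries are not samples of this series and carry no replicate numbers here. No comparison was refitted, so the adjusted p-values were not tested against another tool, and a difference of run or strain between the groups cannot be told apart from genotype.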
